A study of Arabidopsis thaliana with 12 samples.

Results

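ORA47 (AT1G74930) and the related genes AT5G21960, AT1G19210 and AT1G33760 encode DREB-type transcription factors whose transcripts were near the counting floor in Arabidopsis seedlings without cycloheximide (CHX). They are 4 of the 12905 genes in the count table, taken by their identifiers. The value named in their choice was the low level at 0 µM CHX, and their high level at 100 µM was known when they were chosen, so levels at both doses are described below without a p-value, except in ratios of 2 of the genes within a library. Seedlings of Arabidopsis thaliana (ecotype Col-0, wild type) aged 2 weeks were held for 2 h under light of 30 µE in 0, 1, 10 or 100 µM CHX. CHX stops translation by cytosolic ribosomes. Each dose had 3 libraries of whole seedlings, made by bulk MARS-seq, which counts the 3′ ends of polyadenylated transcripts. All groups were wild type, and the study's methods describe a stay in water ahead of treatment. The study's methods describe biological replicates of whole seedlings for RNA extraction, without naming these libraries. Whether the 3 libraries of a dose stem from separate cultures is not given in the labels, and every p-value below then covers no more than the spread among these libraries, which may be technical. The labels were followed for dose, although the study's text assigns this record to its flu mutant and names another for CHX.

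DREB factors belong to the AP2/ERF family of plant transcription factors, which bind DNA through an AP2 domain. Members of the family are known as regulators of responses to cold, drought, wounding and hormones, and many of their genes respond quickly to stress. ORA47 is known as an activator of genes for the synthesis of jasmonate, the hormone of wound responses. JAZ proteins repress jasmonate responses and MYC2 is the main activator they hold in check.

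The RefSeq annotation of TAIR10.1 places ORA47, AT5G21960 and AT1G19210 in the DREB A-5 group and AT1G33760 in the A-4 group. Each of the 4 genes has a single exon. ORA47 lies at chr1:28143851-28145058 on the plus strand and AT5G21960 at chr5:7258037-7259568 on the minus strand. AT1G19210 lies at chr1:6626794-6627688 on the minus strand and AT1G33760 at chr1:12237547-12238710 on the plus strand. The stretch that codes for most of the AP2 domain, 57 codons inside the exon, is shown because it lets the kinship of the 4 genes be read letter by letter. It lies at chr1:28144299-28144469 in ORA47, chr5:7259022-7259192 in AT5G21960, chr1:6627327-6627497 in AT1G19210 and chr1:12238001-12238171 in AT1G33760, and is written 5′ to 3′ on the coding strand. Capitals mark the bases that are the same in all 4 genes.
ORA47: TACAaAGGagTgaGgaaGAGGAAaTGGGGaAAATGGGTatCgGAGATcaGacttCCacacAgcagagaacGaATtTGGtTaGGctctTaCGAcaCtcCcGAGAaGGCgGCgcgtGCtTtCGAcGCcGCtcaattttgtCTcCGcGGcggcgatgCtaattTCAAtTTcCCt
AT5G21960: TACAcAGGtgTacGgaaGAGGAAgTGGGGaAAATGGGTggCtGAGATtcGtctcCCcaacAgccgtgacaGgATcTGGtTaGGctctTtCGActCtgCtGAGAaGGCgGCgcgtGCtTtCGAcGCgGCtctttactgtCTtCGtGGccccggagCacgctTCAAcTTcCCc
AT1G19210: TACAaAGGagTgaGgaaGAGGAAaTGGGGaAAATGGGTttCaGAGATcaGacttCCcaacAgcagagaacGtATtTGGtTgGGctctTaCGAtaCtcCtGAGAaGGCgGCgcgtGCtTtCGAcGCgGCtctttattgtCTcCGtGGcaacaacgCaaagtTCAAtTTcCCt
AT1G33760: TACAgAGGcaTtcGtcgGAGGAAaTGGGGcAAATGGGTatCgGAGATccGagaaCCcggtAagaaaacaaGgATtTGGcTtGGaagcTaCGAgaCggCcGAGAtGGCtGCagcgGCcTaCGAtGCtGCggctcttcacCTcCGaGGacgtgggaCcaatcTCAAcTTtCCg
In these 171 bases, 87 (50.9%) were the same in all 4 genes, and 33 of the 57 residues they encode were. ORA47 and AT1G19210 were the most alike, with 88.9% of bases and 89.5% of residues shared. AT5G21960 shared 76.0% of bases with ORA47 and 79.5% with AT1G19210. AT1G33760 stood furthest from the others, at 57.3% to 63.2% of bases. Over whole proteins the order was the same for the closest pair, since 61.1% of residues were identical between ORA47 and AT1G19210. How reads that match both copies were counted is not given in the sources used here.

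The 250 bases before each annotated start held little in common among the motifs searched on both strands. CCGAC, the core of the element that DREB proteins are known to bind, was in none of the 4 windows and in 12% of 27443 protein-coding gene windows of that length. GCCGCC, the box of ERF proteins, was likewise in none of the 4 and in 1.87% of all. TATAAA was in all 4 windows and in 47.3% of all. TTGAC, the core of the WRKY box, occurred 2 times in AT1G19210 and 1 time in AT1G33760, against 44.9% of all windows with a match. CACGTG, the G box that MYC factors are known to bind, occurred 2 times in AT1G19210 and in none of the other 3, against 6.49% of all windows. CGCGTT, a site known for CAMTA factors, occurred 1 time, also in AT1G19210, against 2.59% of all. The searched motifs do not overlap in these windows. A match in these letters is a description and not a shown binding site. From the window of ORA47, as from that of AT5G21960, 5 of the 6 motifs were missing. The upstream sequences of ORA47 and AT1G33760 are shown with motif matches in capitals. They are joined by the 30 bases of AT1G19210 that hold its CGCGTT match, read here on the other strand, and a TTGAC match. The 3 stretches lie at chr1:28143601-28143850 and chr1:12237297-12237546 on the plus strand and chr1:6627763-6627792 on the minus strand.
ORA47: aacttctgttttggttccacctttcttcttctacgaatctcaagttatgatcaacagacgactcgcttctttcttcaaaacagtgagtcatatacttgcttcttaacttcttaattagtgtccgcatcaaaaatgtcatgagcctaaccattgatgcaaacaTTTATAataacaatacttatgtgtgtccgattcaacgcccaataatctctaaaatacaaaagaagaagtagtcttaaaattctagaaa
AT1G33760: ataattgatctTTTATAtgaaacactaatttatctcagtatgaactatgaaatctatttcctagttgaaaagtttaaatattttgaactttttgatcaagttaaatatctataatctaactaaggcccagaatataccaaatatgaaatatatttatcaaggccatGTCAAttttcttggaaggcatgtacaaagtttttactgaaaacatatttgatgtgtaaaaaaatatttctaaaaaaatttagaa
AT1G19210: acaAACGCGctccctTTGACctttgaagct
The whole upstream window of AT1G19210 lies within ARF19, a gene for an auxin response factor annotated on the same strand, and the 2 gene models overlap by 6 bases. The 3′ end of ORA47 overlaps AT1G74929 on the opposite strand by 102 bases, and whether counting used strand is not given in the sources used here.

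Library totals ranged from 1073063 to 3724564 counts, with the 0 µM libraries at 1073063 to 2036594 and the 10 µM libraries the deepest at 2823964 to 3724564. Levels are given as CPM, the count relative to a library total scaled by edgeR's TMM method, as mean ± SD of 3 libraries. A sum of 3 counts over a dose, used as the floor, was worth 0.358 CPM in the 1 µM libraries, 0.361 in those of 10 µM, 0.430 without CHX and 0.606 in the 100 µM libraries. In whole seedlings, more of a transcript per cell and more cells with it cannot be told apart. The 4 genes took 0.00103% ± 0.000250 of all counts without CHX (SD, n = 3) and 0.00171% ± 0.000348 at 1 µM. Their share was 0.131% ± 0.0260 at 10 µM and 0.405% ± 0.0273 at 100 µM.

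The 4 genes had their steepest rise between 1 and 10 µM. They had 0 to 24 counts per library at 1 µM, were 48.9-fold to 187-fold higher at 10 than at 1 µM, and 3.12-fold to 3.99-fold higher again at 100 µM. At 1 µM they had reached 0.154% to 0.513% of their own level at 100 µM, and at 10 µM 25.1% to 32.1% of it.

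**Figure D1:**
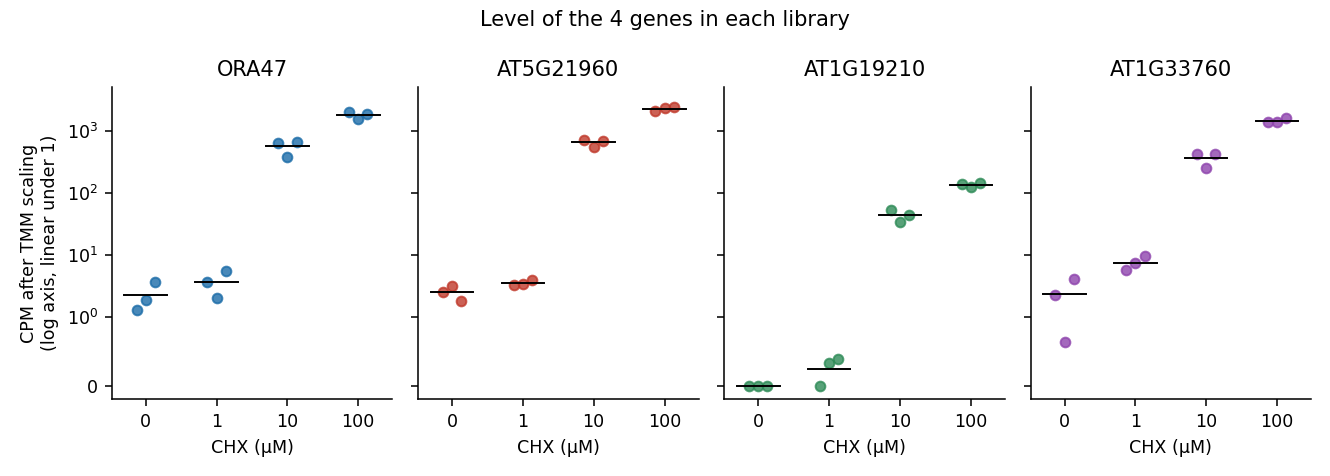
Level of each gene in CPM after TMM scaling (log axis, linear under 1) against CHX dose, with 1 point per library and a line at the mean of 3 libraries. All libraries at 10 and 100 µM sit far above all libraries at 0 and 1 µM, and the 3 libraries of 100 µM sit above those of 10 µM for each gene.

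ORA47, the activator of jasmonate synthesis genes, gave 4, 3 and 8 counts in the 3 libraries of 0 µM and 10, 6 and 14 counts in those of 1 µM. At 10 µM it gave 1906, 1145 and 1482 counts, and at 100 µM 2553, 3087 and 3166. Scaled for library size, its level was 2.24 ± 1.20 CPM without CHX and 3.67 ± 1.73 CPM at 1 µM, against 555 ± 153 CPM at 10 µM and 1811 ± 239 CPM at 100 µM (SD, n = 3 each). The libraries of 0 and 1 µM overlapped in CPM, whereas those of 1, 10 and 100 µM did not overlap one another. The ratio of mean CPM was 151 between 10 and 1 µM and 807 between 100 and 0 µM.

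AT5G21960, the A-5 gene on chromosome 5, gave 8, 5 and 4 counts at 0 µM and 9, 10 and 10 at 1 µM. It gave 2153, 1647 and 1562 counts at 10 µM and 2578, 4563 and 4142 at 100 µM. Its level was 2.49 ± 0.674 CPM without CHX and 3.48 ± 0.365 CPM at 1 µM, against 649 ± 92.0 CPM at 10 µM and 2256 ± 191 CPM at 100 µM. No libraries of neighbouring doses overlapped in CPM, although the lowest of 1 µM, at 3.20 CPM, was close to the highest of 0 µM, at 3.13 CPM. The ratio of mean CPM was 1.40 between 1 and 0 µM, 187 between 10 and 1 µM and 907 between 100 and 0 µM.

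AT1G19210, the closest relative of ORA47, was listed at 0 counts in each 0 µM library, which allows a level of up to 0.430 CPM over that dose. It gave 0, 1 and 1 counts at 1 µM, 160, 100 and 99 at 10 µM and 172, 249 and 244 at 100 µM. Its level was 0.241 ± 0.210 CPM at 1 µM, 43.3 ± 10.0 at 10 µM and 135 ± 8.76 at 100 µM. With no library of 0 or 1 µM above 1 count, the gene passed the study's filter of 5 reads in at least 1 library through the 10 and 100 µM libraries alone, and its rise over 1 µM is given below without a p-value for that reason. No fold between 1 and 0 µM is given, since both sums lie under the floor. The ratio between 10 and 1 µM was 181, with a counting interval (95%, exact binomial) of 49.7 to 1501 because it rests on 2 counts at 1 µM, and the level at 100 µM was at least 312-fold higher than at 0 µM.

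AT1G33760, the A-4 gene, gave 7, 1 and 9 counts at 0 µM and 16, 22 and 24 at 1 µM. It gave 1288, 769 and 935 counts at 10 µM and 1727, 2731 and 2764 at 100 µM. Its level was 2.29 ± 1.70 CPM without CHX and 7.45 ± 1.82 CPM at 1 µM, against 365 ± 96.1 CPM at 10 µM and 1455 ± 140 CPM at 100 µM. Its libraries did not overlap between any neighbouring doses. The ratio of mean CPM was 3.25 between 1 and 0 µM, 48.9 between 10 and 1 µM and 635 between 100 and 0 µM, the last of which was 1020.3 without replicate 3 of 0 µM. Of the 4 genes, AT5G21960 and AT1G33760 were thus higher at 1 than at 0 µM without overlap, beside 23.8% of all genes, a share from which nothing is read because the 0 µM level chose the genes.

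Between 1 and 10 µM, ORA47, AT5G21960 and AT1G33760 rose in the test by edgeR across 12905 genes. The choice of genes did not name these doses, but earlier results of these data were known when it was made. Genes chosen as low without CHX and known to be high at the highest dose must rise at some step. The p-values and ranks below are therefore no independent evidence of a rise. The log2 changes describe how much of it fell at this step. Calls required a change of at least 2-fold and an adjusted p (Benjamini-Hochberg) under 0.05, which 17.2% of all genes met in this comparison, 12.2% as higher and 4.98% as lower. The 10 µM libraries lay above the 1 µM libraries without overlap for all 4 genes and for 22.8% of all genes. The log2 change was 7.25 ± 0.33 (SE) for ORA47, with an adjusted p of 3.4e-12 in edgeR. It was 7.53 ± 0.25 for AT5G21960 (adjusted p 1.5e-14, edgeR), the largest of the 12905 genes. ORA47 ranked 3 by size. AT1G33760 rose by 5.61 ± 0.29 (adjusted p 1.1e-11, edgeR) and ranked 25. For AT1G19210, which entered the table only through its higher doses, the fitted log2 change was 7.22 ± 0.42, and it was 8.41 with libraries thinned to the smallest total. Among all genes, 833 had likewise under 5 counts in every library of 0 and 1 µM, and 28.2% of those were called higher, against 11.1% of the other 12072. The median log2 change of all genes was 0.00.

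Between 10 and 100 µM the fitted changes of the 4 genes were smaller, and all 4 passed the same threshold. Nothing is read from that count, because the high level at 100 µM was known when the genes were chosen, and 4.66% of all genes were called in this comparison, 2.19% as higher and 2.48% as lower. The groups did not overlap for the 4 genes, as for 14.7% of all genes that were higher. The log2 change was 1.71 ± 0.23 for ORA47 and 1.80 ± 0.17 for AT5G21960. It was 1.64 ± 0.21 for AT1G19210 and 2.00 ± 0.22 for AT1G33760. These changes ranked between 107 and 209 among 12905 genes. Across all genes, 160 (1.24%) were called higher in both steps, and 96 (0.744%) were in addition not called between 0 and 1 µM.

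**Figure D2:**
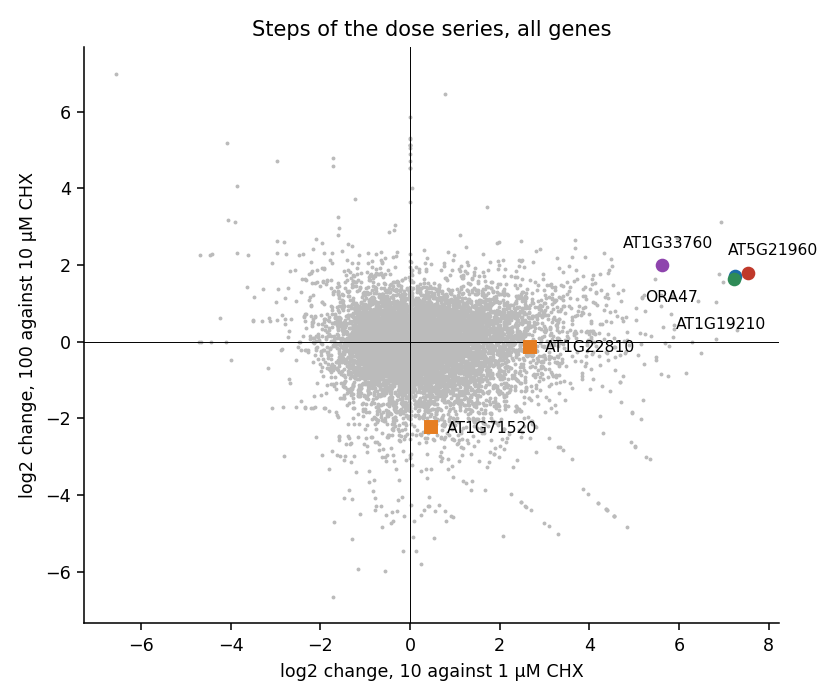
Log2 change of 100 against 10 µM plotted against that of 10 against 1 µM for 12905 genes (grey), with the 4 genes as circles and the relatives AT1G22810 and AT1G71520 as squares. The 4 genes lie at the far right and above 0 on the vertical axis, while the 2 relatives lie below 0 on it.

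Whether the 4 genes followed the dose alike was asked from the log2 ratio of their counts within each library, which does not depend on scaling. The ratio was compared among 1, 10 and 100 µM by an exact permutation test over 9 libraries, with a smallest possible p of 0.00357 and adjustment over the 6 pairs. The pairs of AT1G33760 with ORA47 and with AT5G21960 changed with dose. The log2 ratio of ORA47 to AT1G33760 averaged −1.07 at 1 µM (−1.79 to −0.65), 0.60 at 10 µM (0.57 to 0.66) and 0.31 at 100 µM (0.18 to 0.56), with an adjusted p of 0.0107 in the exact test. AT1G33760 thus held a larger part of the pair at 1 µM in all 3 libraries and a smaller part at 10 and 100 µM in all 6. For AT5G21960 over AT1G33760 the means were −1.04, 0.86 and 0.63 (exact test, adjusted p 0.0143). For AT1G19210 over AT1G33760 they were −4.33, −3.06 and −3.43, with 2 counts of AT1G19210 at 1 µM in all. That pair is given without a p-value, because AT1G19210 entered the table only through the 10 and 100 µM libraries. The test covers the 3 doses together and does not say which of them differ. With 2 doses alone, 3 against 3 libraries cannot go below a p of 0.10, and the adjusted p of these pairs was 0.2 with 1 and 10 µM and 0.3 to 0.4 with 10 and 100 µM. With a block for the replicate number, also a design with fewer assignments, the pairs with AT1G33760 missed the threshold. They stood there at the smallest p that the design allows, which after adjustment lay above the threshold. The blocked test thus could not decide on these pairs. Between 10 and 100 µM the ratios of ORA47 to AT1G33760 barely cleared each other, with 0.565 as the lowest of 10 µM and 0.564 as the highest of 100 µM. Those of AT5G21960 to AT1G33760 barely overlapped, at 0.7400 and 0.7404. The ratios of AT1G19210 to AT1G33760 did not overlap and ran from −3.23 to −2.94 at 10 µM and from −3.50 to −3.32 at 100 µM.

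The other 3 pairs, all within the A-5 group, did not pass the test. ORA47 over AT5G21960 averaged −0.03 at 1 µM, −0.26 at 10 µM and −0.32 at 100 µM (exact test, adjusted p 0.757). ORA47 over AT1G19210 averaged 3.26, 3.66 and 3.74 (exact test, adjusted p 0.757), with a range of 2.12 to 4.39 at 1 µM, where AT1G19210 had 2 counts in all. AT5G21960 over AT1G19210 averaged 3.29, 3.92 and 4.06 (exact test, adjusted p 0.343). The pairs with AT1G19210 rest on those 2 counts, and without replicate 1 of 1 µM, in which the gene was at 0, the adjusted p fell to 0.0257 with ORA47 and 0.0214 with AT5G21960. Nothing is read from the p-values of pairs with AT1G19210, since the gene entered the table only through its higher doses. A p that misses the threshold does not show that 2 genes respond alike.

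**Figure D3:**
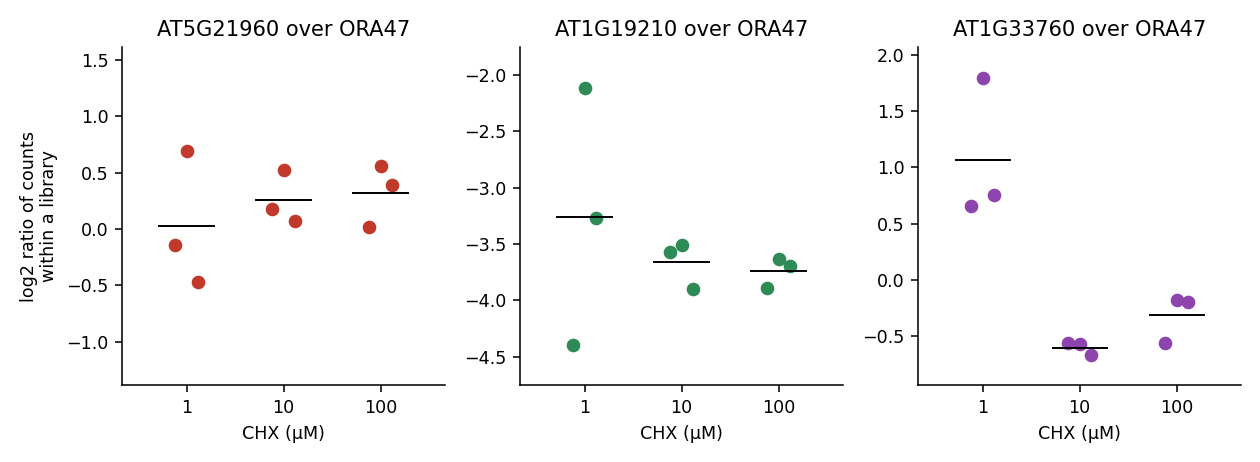
Log2 ratio of the counts of AT5G21960, AT1G19210 and AT1G33760 to those of ORA47 within each library (0.5 added to counts), against CHX dose, with a line at the mean of 3 libraries and panels of equal height in log2 units. The ratio of AT1G33760 to ORA47 is above 0 in the 3 libraries of 1 µM and below 0 in the 6 libraries of 10 and 100 µM.

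Among the relatives nearest to the 4 genes in protein sequence, AT1G22810 and AT1G71520 had high counts at 1 µM already. AT1G22810, an A-5 gene, gave 10, 4 and 11 counts without CHX and 322, 348 and 410 counts at 1 µM. At 10 µM it gave 3114, 1974 and 1800 counts, and at 100 µM 954, 1428 and 1360. Its 1 µM libraries lay far above those of 0 µM. Its log2 change was 5.16 ± 0.28 between 0 and 1 µM (adjusted p 5.4e-12, edgeR), 2.67 ± 0.20 between 1 and 10 µM (adjusted p 2.7e-09, edgeR) and −0.13 ± 0.19 between 10 and 100 µM (adjusted p 0.77, edgeR). AT1G71520, also an A-5 gene, gave 9, 2 and 2 counts without CHX and 327, 408 and 445 counts at 1 µM. At 10 µM it gave 545, 562 and 509 counts, and at 100 µM 61, 64 and 79. It rose by 6.23 ± 0.32 between 0 and 1 µM (adjusted p 1.7e-12, edgeR), changed by 0.47 ± 0.20 between 1 and 10 µM (adjusted p 0.081, edgeR) and fell by 2.23 ± 0.22 between 10 and 100 µM (adjusted p 1.5e-06, edgeR).

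The log2 ratios of the 4 genes to these relatives within a library are given as a description without a test, since the comparison was chosen after the counts were seen. The log2 ratio of ORA47 to AT1G71520 averaged −5.29 at 1 µM, 1.46 at 10 µM and 5.42 at 100 µM. That of ORA47 to AT1G22810 averaged −5.17, −0.59 and 1.25. In each of the 8 ratios of the 4 genes to AT1G22810 and AT1G71520 the value climbed at both steps, and the libraries of the 3 doses did not overlap.

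Other near relatives had few counts at 0 and 1 µM. AT1G71450, the A-4 protein nearest to AT1G33760 at 45.4% identity, is one of them. It gave 0 counts in each library without CHX and 3, 0 and 0 counts at 1 µM. At 10 µM it gave 26, 13 and 6 counts, and at 100 µM 24, 37 and 35. Its fitted log2 change between 1 and 10 µM was 3.71 ± 0.74, without a p-value because it entered the table only through its higher doses, and between 10 and 100 µM it rose by 1.86 ± 0.44 (adjusted p 0.012, edgeR). AT1G44830, with 39.5% identity to ORA47 against 39.6% for AT1G22810, gave 0 counts at 0 and 1 µM, 6 over the 3 libraries of 10 µM and 9 over those of 100 µM. AT1G77640, with 38.4% identity to AT1G19210 against 38.2% for AT1G22810, gave 1, 1, 9 and 11 counts over the libraries of the 4 doses in turn. Both entered the table only through higher doses, and neither was called between 1 and 10 µM or between 10 and 100 µM.

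Over the wider family, 42 of 53 other listed DREB genes were measured. Between 1 and 10 µM, 16 of them rose, 4 fell and 22 were not called, with a median log2 change of 0.92, while 12.2% of all genes were called higher and 4.98% lower. Of the 42, 7 had under 5 counts in every library of 0 and 1 µM, and 5 of those are among the 16. Of the other 35, 11 rose (31.4%), against 11.1% of all such genes. Between 10 and 100 µM, 9 rose, 3 fell and 30 were not called, with a median of 0.50 beside 0.01 for all genes, of which 2.19% were called higher and 2.48% lower. Between 0 and 1 µM, 17 rose, none fell and 25 were not called, with a median of 0.78 beside 0.02 for all genes while 16.7% of all genes were called, 13.5% as higher and 3.12% as lower. The 17 include genes that entered the table only through libraries with CHX, such as DDF1 and ERF53 with 2 and 1 counts at 0 µM in all. Nothing is read from that count for this reason.

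Within the A-5 group the 12 other genes went different ways. Between 0 and 1 µM, 3 rose and 9 were not called, and the 3 were AT1G22810, AT1G71520 and CEJ1, a factor known from ethylene and jasmonate responses that rose by 2.45 ± 0.25 (adjusted p 8.2e-08, edgeR). Between 1 and 10 µM, 3 rose (AT1G22810, RAP2.10 and DREB26), 2 fell (RAP2.1 and DEAR2) and 7 were not called, beside 12.2% of all genes higher and 4.98% lower. Between 10 and 100 µM none rose and 2 fell, AT1G71520 and RAP2.9, the latter by 2.72 ± 0.29 (adjusted p 3.5e-06, edgeR), beside 2.19% of all genes higher and 2.48% lower. Between 0 and 1 µM the shares of all genes were 13.5% and 3.12%.

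The A-1 group, which holds the CBF regulators of cold acclimation, had 5 measured genes. CBF1 and CBF4 had at most 1 count over the libraries of 0 µM and none at 1 µM, so that they entered the table only through higher doses. The other 3, CBF2, DDF1 and DDF2, rose between 1 and 10 µM, beside 11.1% of all genes with at least 5 counts in a library of 0 or 1 µM. Between 10 and 100 µM 4 of the 5 (CBF1, CBF2, CBF4 and DDF1) rose, beside 2.19% of all genes. CBF2 gave 8, 3 and 3 counts at 1 µM, 70, 87 and 79 at 10 µM and 98, 144 and 161 at 100 µM. Its log2 change was 4.06 ± 0.39 for 10 against 1 µM (adjusted p 6.5e-08, edgeR) and 1.50 ± 0.26 for 100 against 10 µM (adjusted p 0.00069, edgeR). DDF1 already had 11 to 32 counts a library at 1 µM, a fitted log2 change of 4.56 ± 0.63 over 0 µM. No p-value is given for it, because with at most 1 count in each 0 µM library it entered the table only through libraries with CHX. Of the 11 A-4 genes besides AT1G33760, 2 rose and 1 fell between 1 and 10 µM, beside 12.2% and 4.98% of all genes. Of the 2, AT1G71450 entered the table only through higher doses. Among the other 10 A-4 genes 1 rose, beside the 11.1% of all genes with at least 5 counts in a library of 0 or 1 µM. Of the 6 genes of the A-2 and A-3 groups, 3 rose and none fell, and of the 8 A-6 genes 3 rose and 1 fell, in each case with 1 of the risen genes under 5 counts in every library of 0 and 1 µM.

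**Figure D4:**
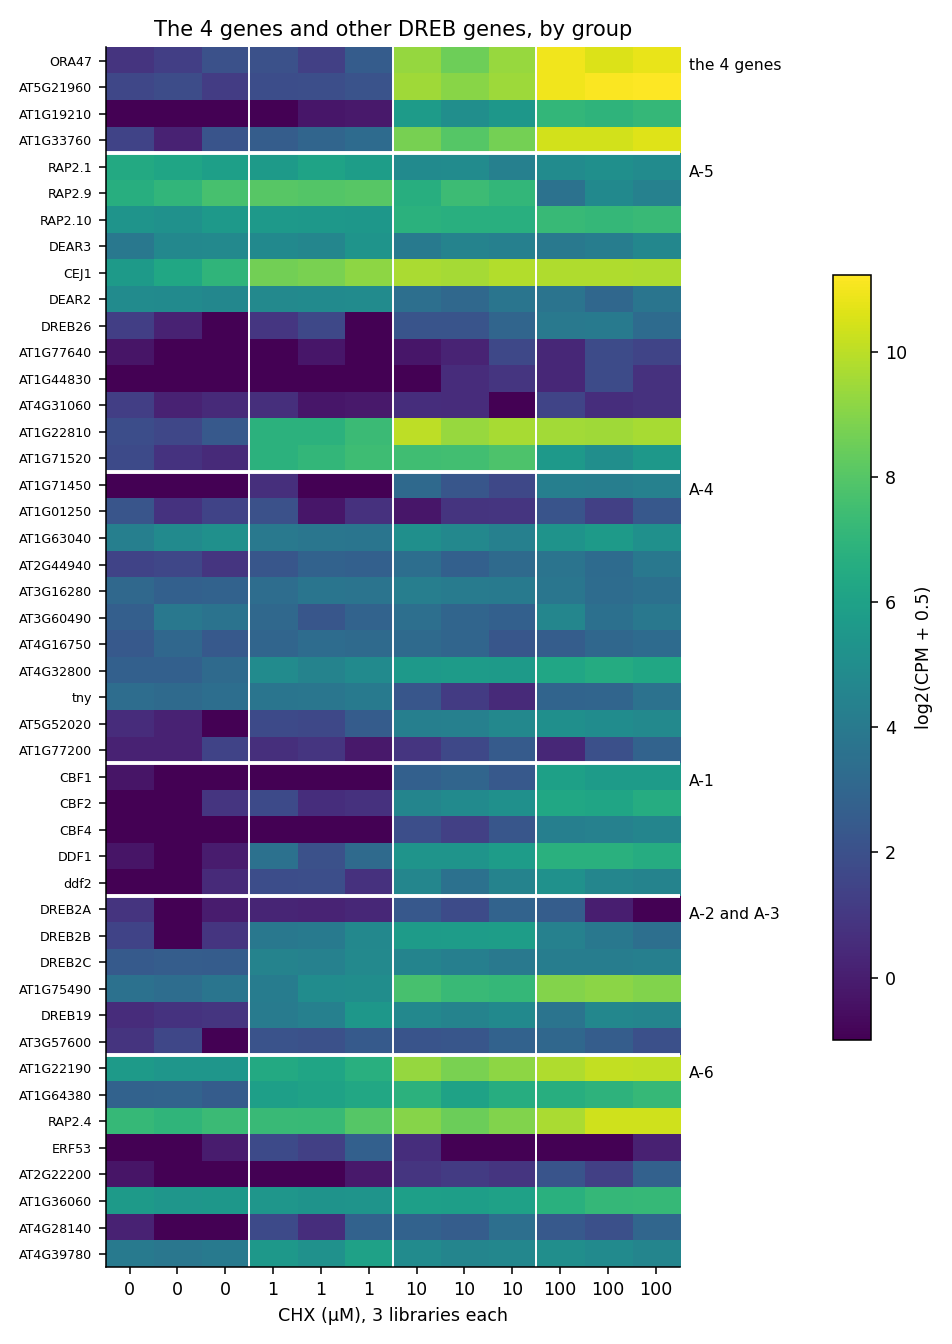
Level of the 4 genes and 42 other DREB genes as log2(CPM + 0.5) in 12 libraries (columns, 3 per CHX dose), with rows grouped by DREB group. The top 4 rows are dark at 0 and 1 µM and bright at 10 and 100 µM, while AT1G22810 and AT1G71520 turn bright at 1 µM. Colours are meant for reading along a row.

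Genes of the jasmonate pathway, of which ORA47 is a known regulator, were described from a list of 19 synthesis enzymes, 12 JAZ repressors and 4 receptor and MYC genes. Of 18 measured synthesis enzymes, 7 rose between 0 and 1 µM, beside 13.5% of all genes. ORA47 had 6 to 14 counts a library at 1 µM, and whether it acts on these genes here was not tested. Among the 7 was LOX4, a lipoxygenase of the first step of the pathway, which rose by 5.04 ± 0.26 (adjusted p 1.7e-12, edgeR). Between 1 and 10 µM 6 rose, beside 12.2% of all genes, none fell and 12 were not called, and between 10 and 100 µM none was called in either direction. At that last step the smallest adjusted p in the list was that of OPR3, the reductase of the pathway, whose log2 change of 0.93 ± 0.21 (adjusted p 0.0059, edgeR) stayed under 2-fold. Of the 4 receptor and MYC genes 1 rose at each of the first 2 steps, beside 13.5% and 12.2% of all genes, and COI1, MYC3 and MYC4 were not called there. That gene was MYC2, which rose by 1.30 ± 0.22 between 0 and 1 µM and by 2.89 ± 0.20 between 1 and 10 µM (adjusted p 8.7e-10, edgeR).

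Of 10 measured JAZ genes, 3 rose between 0 and 1 µM, 5 rose between 1 and 10 µM and 1 rose between 10 and 100 µM, and none fell. The shares of all genes called higher were 13.5%, 12.2% and 2.19%. JAZ5 had the smallest adjusted p between 1 and 10 µM, with a log2 change of 3.06 ± 0.25 (adjusted p 7.4e-09, edgeR). Of the 10, 3 had under 5 counts in every library of 0 and 1 µM, and 1 of those is among the 5. JAZ10, among the 3 that rose between 0 and 1 µM, had 0 counts at 0 µM and entered the table only through libraries with CHX.

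ORA47 and AT1G19210 each have a JAZ gene 3 places away in gene order. In gene order, AT1G19210 is followed on its JAZ side by AT1G19200, a DUF581 gene, then an alpha/beta-hydrolase gene, then JAZ1. On the side away from ALDH10A8, ORA47 is followed by AT1G74929, then the DUF581 gene AT1G74940, then TIFY10B, also known as JAZ2. JAZ1 gave 18, 18 and 21 counts at 1 µM and 172, 106 and 79 at 10 µM, a log2 change of 2.63 ± 0.27 (adjusted p 2.1e-07, edgeR). TIFY10B gave 55, 52 and 70 counts at 1 µM and 398, 202 and 230 at 10 µM, a log2 change of 2.23 ± 0.48 (adjusted p 0.0014, edgeR). At 100 µM TIFY10B differed widely between libraries, at 279, 116 and 41 counts. Neither DUF581 gene was called between 1 and 10 µM, with log2 changes of −0.64 for AT1G74940 and 0.87 for AT1G19200.

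Among the 40 genes within 5 places of the 4 genes, 29 were measured. Between 1 and 10 µM, 4 of them rose and none fell, which at 4 of 29 lies near the 12.2% of all genes called higher. Besides JAZ1 and TIFY10B these were FMO1, a monooxygenase of systemic immunity near AT1G19210, and CYP76C6, a cytochrome P450 gene near AT1G33760. FMO1 had 0 counts at 0 µM and 3 at 1 µM in all, so it entered the table only through higher doses. Of all genes that did so, 28.2% were called higher, and nothing is read from the call of FMO1. None of the 9 measured neighbours of AT5G21960 was called. The genes that overlap AT1G19210 and ORA47 were not called, with log2 changes of 0.74 ± 0.78 for ARF19 (adjusted p 0.52, edgeR) and 1.64 ± 0.70 for AT1G74929 (adjusted p 0.090, edgeR), the latter on 7 counts at 1 µM and 23 at 10 µM.

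**Figure D5:**
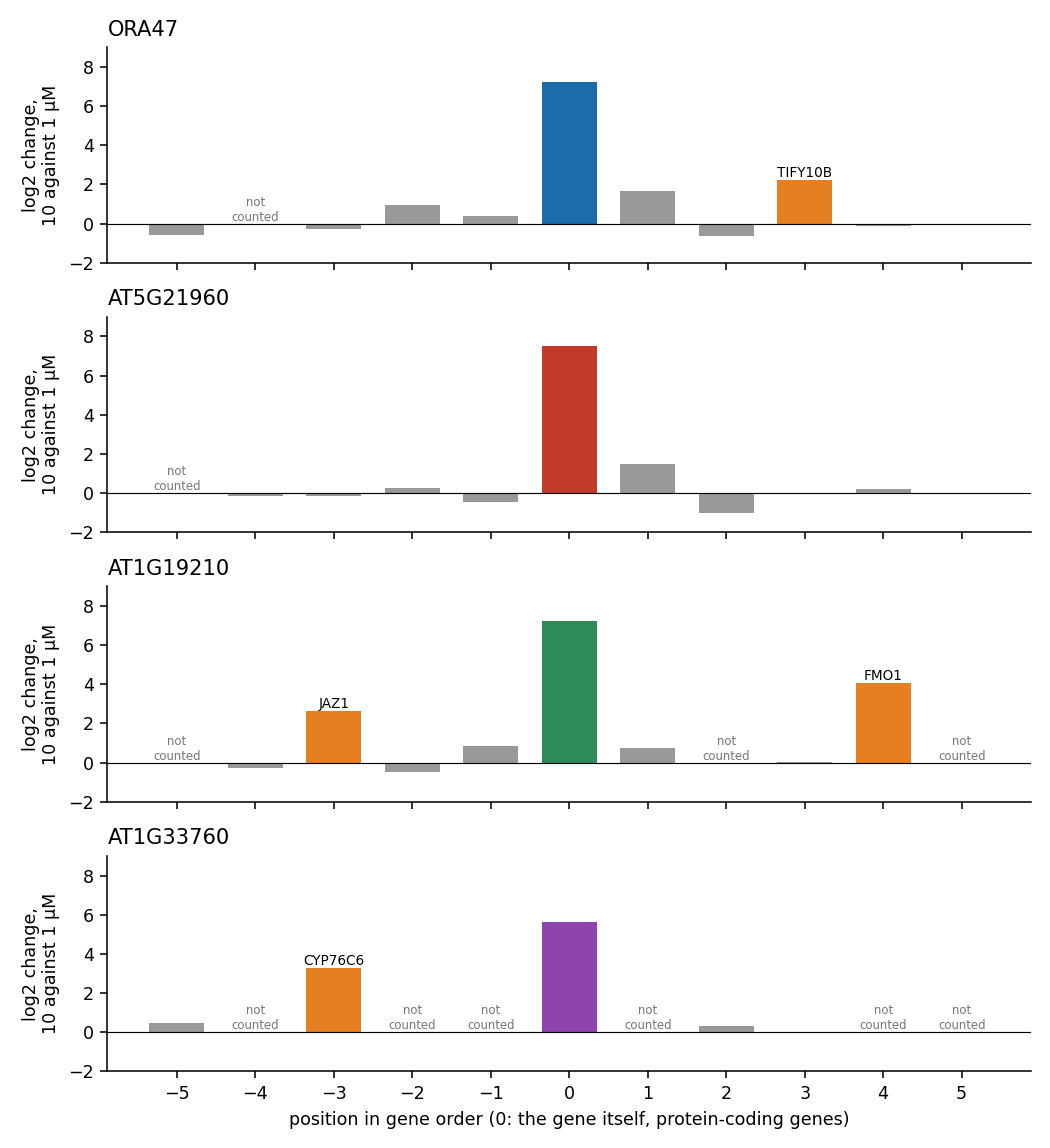
Log2 change of 10 against 1 µM by position in gene order, from 5 genes before to 5 after each of the 4 genes (position 0), with neighbours called higher in orange and others in grey. The 4 genes reach 5.61 to 7.53, and the called neighbours TIFY10B, JAZ1, FMO1 and CYP76C6 reach 2.23 to 4.06.

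The genes whose levels ran most like the 4 genes were found by Pearson's r of log2(CPM + 1) over 12 libraries, among 7749 genes with a mean of at least 10 CPM at their highest dose. The libraries share dose and scaling, so r describes a common dose pattern and is given without a test. The 4 genes were chosen as low at 0 µM and were known to be high at 100 µM, which by itself brings a high r among them. AT1G19210 and AT5G21960 were each other's closest among the 4 genes, with r of 0.998. The most like gene to ORA47 was PP2-A7, a phloem protein gene, with r of 0.997, and to AT5G21960 it was IPT7, an isopentenyltransferase of cytokinin synthesis, with r of 0.998. PP2-A7 was listed at 0 without CHX and had 0.248 ± 0.216 CPM at 1 µM, against 11.0 ± 2.93 CPM at 10 µM and 18.9 ± 0.559 CPM at 100 µM. PP2-A7 and IPT7 were among the 5 most like genes of all 3 A-5 genes. The others named by this measure were AT1G72950, a TIR-NBS gene, for ORA47 and AT5G16200 for AT5G21960 and AT1G19210.

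AT1G33760 had a separate set of most like genes. They were ERF1, an ethylene response factor, with r of 0.997, NCED3, the enzyme of the committed step in abscisic acid synthesis, with r of 0.997, OPR3 with r of 0.996, WRKY46 with r of 0.995 and AT5G48655 with r of 0.995. Between AT1G33760 and the other 3 genes r was 0.985 to 0.99. Over all genes compared, 7 had r over 0.99 with ORA47, 6 with AT5G21960, 8 with AT1G19210 and 22 with AT1G33760. NCED3 was at 1.66 ± 0.302 CPM at 1 µM, 39.9 ± 10.4 at 10 µM and 111 ± 16.6 at 100 µM.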

How the data were processed

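The authors made bulk MARS-seq libraries of whole seedlings and, per the submitters' processing notes and the study's methods, used bcl2fastq 2.17.1.14, cutadapt 1.8.3, STAR with Araport 11 models, HTSeq and DESeq2. The authors deposited unnormalized read counts for genes with at least 5 reads in a library. The table also holds 24 per-library columns of normalized and rlog values of the same libraries, which were not used here, and columns of the authors' own comparisons (fold changes and p-values), which were not read. Copies made by PCR may be among the counts, so floors and intervals cover counting error only.

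Tests on counts used edgeR 4.0.16 (R 4.3.3), by a quasi-likelihood fit of 1 mean per dose to all 12 libraries and 12905 genes, with TMM scaling and Benjamini-Hochberg adjustment. Calls needed an adjusted p under 0.05 and at least a 2-fold change. The SE of a log2 change is not an output of that test and was taken as the size of the change over the square root of its F statistic. Folds are ratios of mean CPM. Against 0 counts, a fold is a bound at the floor of 3 counts over the dose. Ratios within a library used counts + 0.5 and exact permutation tests (SciPy 1.17.1). Identity of proteins came from pairwise alignment (Biopython 1.88), as a percentage of the shorter protein. Sequences, gene order and names came from RefSeq on TAIR10.1, in which 12758 identifiers matched. The 4 genes, the gene lists and the tests were chosen with earlier results of these data known. Named were the 4 genes, up to 5 called genes a list by adjusted p, the nearest relatives by protein identity, measured neighbours within 5 genes and the 5 genes most alike by r. Others named to spell out a short count were chosen after their values were seen, as were the comparison with near relatives and the count of genes under 5 reads in every library of 0 and 1 µM. Alternatives were RLE, reference-gene and total-count scaling, filterByExpr, a term for the replicate number, a fit of only the groups compared, DESeq2 1.42.0, thinning, other offsets and each library left out. The tests were checked on simulated data.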

Additional observations from a re-analysis of the deposited data

How the results depend on the processing

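ORA47, AT5G21960 and AT1G33760 were called higher between 1 and 10 µM under each alternative run, with the limit from the choice of genes given above. Over all genes, 974 (total counts) to 1698 (only the groups compared) were called higher there. AT1G19210 at that step and all 4 genes between 10 and 100 µM also stayed called. Nothing is read from those calls, for the reasons given above. With a library left out, the log2 change for 10 against 1 µM ranged over 6.94 to 7.65 for ORA47, 7.45 to 7.64 for AT5G21960, 6.72 to 7.61 for AT1G19210 and 5.45 to 5.81 for AT1G33760. Under the other alternatives it ranged over 6.74 to 7.33, 7.02 to 7.79, 6.75 to 8.41 and 5.10 to 6.10, with 8.41 from thinning. Scaling moved the background. Reference genes shifted the median log2 change of all genes to 0.58, −0.19 and 0.58 over the 3 steps, and total counts to −0.31, −0.49 and −0.18. With TMM, 2 of the 8 measured reference genes were themselves called lower for 1 against 0 µM and 3 for 100 against 0 µM. For 10 against 1 µM 1 was called higher, and for 100 against 10 µM none was called. The share of calls that were higher for 10 against 1 µM was 71.1% with TMM, 56.1% with reference genes and 28.6% with total counts. For 100 against 10 µM, 282 genes rose and 320 fell with TMM, 1863 and 132 with reference genes, 142 and 498 with total counts, and 181 rose with thinning. For 10 against 1 µM, 974 rose and 2426 fell with total counts, and 1022 fell with reference genes. For 1 against 0 µM, 3150 rose and 90 fell with reference genes, and 1249 fell with total counts. The fold of 100 over 0 µM was 400.3 for ORA47, 436 for AT5G21960, at least 149 for AT1G19210 and 312 for AT1G33760 with total counts, and 1351, 1784, at least 629 and 1083 in that order with reference genes. With a library left out it ranged over 171 to 326 for AT1G19210 as a bound, and over 465 to 1020.3 for AT1G33760.

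Of the other DREB genes, 1 fell for 1 against 0 µM with RLE, with total counts and with DESeq2 (0 to 1 with a library left out), 7 fell for 10 against 1 µM with total counts, and 18 rose for 100 against 10 µM with reference genes. Of the jasmonate synthesis genes, 1 fell for 10 against 1 µM with total counts, and 3 JAZ genes rose there with thinning. With an offset of 1 the adjusted p was 0.03 for ORA47 over AT1G19210 and 0.0214 for AT5G21960 over AT1G19210, which with a library left out ranged over 0.0257 to 0.964 and 0.0214 to 0.911. The 3 pairs with AT1G33760 gave an adjusted p of 0.0556 with a replicate block, 0.2 with 1 and 10 µM alone, and 0.3, 0.4 and 0.3 with 10 and 100 µM alone, designs with fewer assignments, and at most 0.0357 with a library left out. With the block, these 3 pairs stood at the smallest p of that design, so those 3 alone could not pass it. As above, nothing is read from the pairs with AT1G19210. Whether the replicate numbers pair the samples is not settled. Of 18 same-number pairs of libraries, 8 correlated over 0.1. Their r ran from −0.173 to 0.295, against −0.336 to 0.25 for pairs of different number. In 19 of 36 choices, the best partner of a library at another dose had the same number. The block left each other call of the 4 genes and their pairs on its side of the threshold (all genes, 100 against 10 µM: 294 rose and 376 fell). Leaving out the filter gave the same fit, as all genes entered it. Depth limits AT1G19210 most, with 2 counts at 1 µM.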
